A study of Mus musculus with 9 samples.

Results

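Epithelial transcripts of the female reproductive tract were followed in 9 RNA-seq libraries of eWAT (epigonadal white adipose tissue), which lies against the ovary, oviduct and uterus. The gene set held 10 of the 53700 gene IDs of the table: Ovgp1, Pax8, Foxj1, Krt8, Krt18, Epcam, Cdh1, Cldn3, Hoxa13 and Sprr2f. They were chosen by name from genes already seen to vary between these libraries, so the levels per library are given as a description, and the tests between groups given last are no independent evidence. All 10 were found, and none shared its symbol with another ID. The mice were female NSG (NOD/SCID/IL2Rγ-null) animals, an immunodeficient strain, and the labels call the genotype of every group Wild Type. The untreated group held mice 4, 7 and 10. The EV group held mice 36, 37 and 41, which received vesicles (EVs) shed by the human triple-negative breast cancer line MDA-MB-231 in 10 tail vein injections over 5 weeks. The tumour bearing group held mice 17, 21 and 22, which carried orthotopic MDA-MB-231 tumours. All tissue was taken at week 12, and mouse 7 of the untreated group is written below as untreated 7, and so on.

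The oviduct is lined by ciliated cells and by secretory cells, both derived from the Müllerian duct, whereas the uterus is lined by a simple luminal and glandular epithelium. Cells of nearly every simple epithelium hold keratin 8 and keratin 18 filaments and are joined by E-cadherin, so these genes mark epithelium without naming an organ. The bladder next to the uterus is lined instead by urothelium, a stratified lining whose surface is covered by uroplakins.

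Sequence differs in how far it separates the members from related genes. The small proline-rich family to which Sprr2f belongs is a cluster of close copies on chromosome 3, so the coding sequence of Sprr2f is shown beside that of Sprr2a2, the family member with the most counts here. Both were read from GENCODE M21 transcripts, without the stop codon, and capitals mark bases that differ, or have no partner, in a global alignment of the pair.
Sprr2f: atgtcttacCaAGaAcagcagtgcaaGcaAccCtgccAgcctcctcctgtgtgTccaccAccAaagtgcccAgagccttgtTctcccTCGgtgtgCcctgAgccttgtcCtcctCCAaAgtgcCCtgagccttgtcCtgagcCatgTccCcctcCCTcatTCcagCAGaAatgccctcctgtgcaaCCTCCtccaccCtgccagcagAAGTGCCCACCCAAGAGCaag
Sprr2a2: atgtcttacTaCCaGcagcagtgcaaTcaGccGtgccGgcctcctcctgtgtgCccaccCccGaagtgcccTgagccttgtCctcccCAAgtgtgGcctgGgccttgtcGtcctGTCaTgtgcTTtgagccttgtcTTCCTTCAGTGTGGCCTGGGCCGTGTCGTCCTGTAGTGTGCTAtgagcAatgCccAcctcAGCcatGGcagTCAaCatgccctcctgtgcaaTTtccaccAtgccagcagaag

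The pair were identical at 166 of 207 aligned bases (80.2%), with 63 further bases facing gaps. Over the whole Sprr2f transcript, 0 of 510 windows of 100 bases occurred in another Sprr2 gene. For Sprr2a1 and Sprr2a2, 92.5% and 92.8% of windows did, so the division of counts among the Sprr2a genes is uncertain whereas Sprr2f could be counted apart. Among the other members, Ovgp1 overlaps the predicted gene Gm42890 on the same strand, and Pax8, Krt8 and Cldn3 overlap Gm13415, Gm36026 and Wbscr25 on the opposite strand. The sources used here do not give the strand setting of the counting, and reads of such pairs cannot be told apart.

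The 250 bases upstream of the start site are shown for members that stand for the patterns described below: Ovgp1 for the oviduct, the keratin pair for simple epithelium, and Sprr2f. They are RefSeq sequences on GRCm38.p6, written in the direction of transcription, with the start and end of each window on that build. Capitals mark every match to the motifs searched.
Ovgp1, chr3:105973552-105973801, plus strand: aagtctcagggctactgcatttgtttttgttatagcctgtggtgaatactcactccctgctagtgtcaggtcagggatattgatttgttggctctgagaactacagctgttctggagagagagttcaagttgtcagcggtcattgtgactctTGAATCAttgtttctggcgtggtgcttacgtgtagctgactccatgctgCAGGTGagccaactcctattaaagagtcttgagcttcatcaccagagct
Krt8, chr15:102004343-102004592, minus strand: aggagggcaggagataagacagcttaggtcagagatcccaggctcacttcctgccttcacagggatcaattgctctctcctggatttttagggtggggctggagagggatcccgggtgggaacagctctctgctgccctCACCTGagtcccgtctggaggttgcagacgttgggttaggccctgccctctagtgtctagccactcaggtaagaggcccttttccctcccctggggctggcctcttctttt
Krt18, chr15:102027966-102028215, plus strand: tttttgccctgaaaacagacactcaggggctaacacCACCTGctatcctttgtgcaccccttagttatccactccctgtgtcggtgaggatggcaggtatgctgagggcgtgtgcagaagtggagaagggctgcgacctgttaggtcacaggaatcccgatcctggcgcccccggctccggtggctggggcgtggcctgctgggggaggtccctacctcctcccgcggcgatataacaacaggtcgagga
Sprr2f, chr3:92364937-92365186, plus strand: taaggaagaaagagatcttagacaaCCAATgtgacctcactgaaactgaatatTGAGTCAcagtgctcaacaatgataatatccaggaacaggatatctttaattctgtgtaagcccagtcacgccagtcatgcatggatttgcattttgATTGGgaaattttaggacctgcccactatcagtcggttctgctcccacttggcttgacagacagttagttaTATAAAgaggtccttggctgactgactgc

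RefSeq windows were matched for 8 of the 10 members, without Foxj1 and Cdh1. The motifs were searched on both strands, and no match of one overlapped a match of another in the windows shown. The E-box CAGGTG, the kind of site that repressors such as Snail and Zeb bind in epithelial genes, was found upstream of Ovgp1, Krt8, Krt18 and Epcam (4 of 8) and in 17.2% of 32851 mouse promoters. The AP-1 site TGANTCA was found upstream of Ovgp1 and Sprr2f, against 6.75% of all promoters. The TATA box TATAAA was found upstream of Sprr2f only among the 8, against 12.4% of all promoters. The GC box GGGCGG was present upstream of Pax8, Epcam, Cldn3 and Hoxa13 (32.7% of all promoters), and CCAAT upstream of Pax8, Hoxa13 and Sprr2f (33.8%). The grainyhead site AACCNGTT was found upstream of 0 members and in 1.79% of promoters. These matches describe letters and are not evidence of binding. Krt8 and Krt18 are neighbours on chromosome 15, transcribed away from each other from start sites 23874 bases apart.

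Before the members are described, 4 libraries have to be set apart. Total counts ran from 20097743 to 26149300 per library. Inha, the inhibin alpha subunit made by granulosa cells of the ovary, stood at 1385 CPM for untreated 10, 1422 for EV 36 and 1407 for EV 41, with 0.537 to 4.15 CPM in the other 6 libraries. CPM here means counts relative to the library total, scaled by TMM. Myh11, the myosin heavy chain of smooth muscle, peaked in untreated 7 at 5384 CPM, against 148 to 740.4 CPM elsewhere. The labelled tissue was checked by 12 adipocyte genes, whose summed level was 2902 CPM in untreated 7, 6404 to 13800 CPM over the 3 libraries with Inha, and 51790 to 76200 CPM in the other 5. Each of these libraries is 1 mouse. In bulk tissue, fewer cells of a type and less RNA per cell cannot be told apart.

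The members fell into different patterns over the same libraries. Ovgp1, Pax8 and Foxj1 were found where Inha was found: untreated 10, EV 36 and EV 41 together held 99.8% of the Ovgp1 level summed over 9 libraries, 98.9% for Pax8 and 99.6% for Foxj1, beside 99.7% for Inha. Untreated 7, the library with most Myh11, held 75.2% of the summed level for Krt8, 83.2% for Krt18, 80.0% for Cdh1, 69.4% for Hoxa13 and 63.4% for Myh11. Epcam was divided, with 43.3% in untreated 7 and 55.5% in the Inha libraries. Cldn3 had 87.7% in the Inha libraries and 1.65% in untreated 7. Sprr2f had 79.4% in untreated 10 alone, with 3.05% in EV 36 and 6.86% in EV 41. The members therefore did not share a pattern: Cldn3, a general epithelial gene, was found with Inha, and Hoxa13, a urogenital tract gene, was highest in untreated 7.

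**Figure D1:**
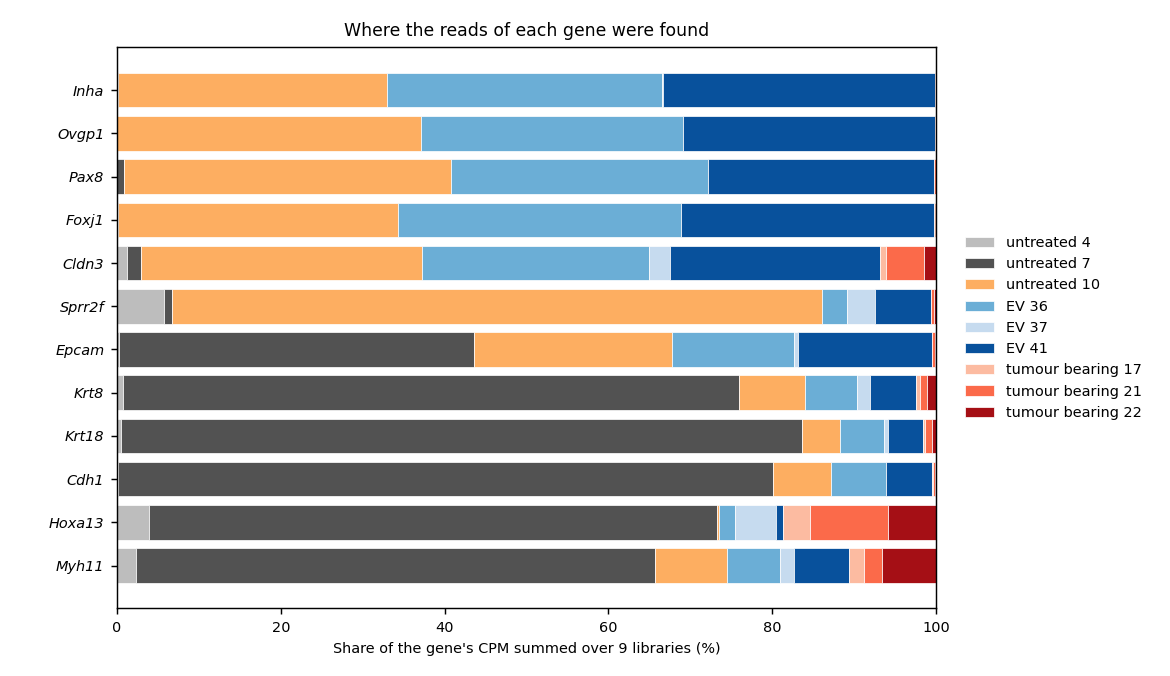
Share (%) of each gene's CPM, summed over the 9 libraries, that each library held, as stacked bars coloured by library, for the 10 members with Inha and Myh11. Orange, mid blue and dark blue (untreated 10, EV 36 and EV 41) fill nearly the whole bar of Inha, Ovgp1, Pax8 and Foxj1, and dark grey (untreated 7) fills most of the bar of Krt8, Krt18, Cdh1, Hoxa13 and Myh11.

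Ovgp1 encodes oviductin, a glycoprotein secreted by the oviduct onto the egg. It reached 46.8 CPM in untreated 10, 40.3 in EV 36 and 38.8 in EV 41, from 1241, 1126 and 1026 counts. Untreated 7 had 1 count (0.0346 CPM), tumour bearing 21 had 3 counts (0.174 CPM), and the other 4 libraries had 0, which allows up to 0.129 to 0.168 CPM at 3 counts. The 3 libraries with Ovgp1 lay within 1.21-fold of each other and came from the untreated and the EV groups alike.

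Pax8, a transcription factor of the Müllerian duct, kidney and thyroid, reached 12.1 CPM in untreated 10, 9.53 in EV 36 and 8.39 in EV 41. It was at 0.277 CPM in untreated 7, from 8 counts, at 0.0579 CPM in tumour bearing 21, and had 0 counts in the remaining 4 libraries. The order of the libraries was that of Ovgp1 among the 3 high ones, and their spread was 1.44-fold. Other genes listed for oviduct secretory cells were Sox17, Pax2, Emx2 and Msx2. Emx2, a homeobox gene of the urogenital tract, was at 20.1 to 24.0 CPM in the same 3 libraries, at 4.40 to 9.64 CPM in the 5 fat-rich libraries and at 0.173 CPM in untreated 7. Sox17, which endothelium also expresses, did not follow the pattern and was highest in tumour bearing 21, at 95.2 CPM. Msx2 was the exception in the other direction, at 55.5 CPM in untreated 7 and at most 0.931 CPM elsewhere.

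Foxj1, the transcription factor that switches on motile cilium genes, reached 42.2 CPM in untreated 10, 42.6 in EV 36 and 38.1 in EV 41. It was at 0.173 CPM in untreated 7, 0.0431 CPM in EV 37 and 0.280 CPM in tumour bearing 17, and had 0 counts in untreated 4 and tumour bearing 21 and 22. The list of multiciliated cell genes, which includes Foxj1 itself, pointed mostly to the same libraries. Of its 34 measured genes, 24 reached 5 CPM in some library, and some, such as Foxj1, reached it only there. For 19 of the 24, Foxj1 included (79.2%), untreated 10, EV 36 and EV 41 were the highest 3 libraries. Over all 14271 IDs that reached 5 CPM this was so for 19.0%, and these libraries were picked after their levels were seen, so the counts are descriptive. For 12 of the 24 the lowest of those 3 libraries was more than 10-fold above each of the other 6, against 2.02% of all IDs. Rsph1, a radial spoke protein, was at 29.9 to 49.3 CPM in them and at 2.13 to 7.16 CPM elsewhere. Cfap43, a cilium-associated protein, was at 22.8 to 27.7 CPM against 7.73 to 14.6 CPM, a smaller contrast. Tppp3, a microtubule protein that other cells also express, was highest in tumour bearing 22, at 80.6 CPM.

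Cldn3, a tight junction claudin of simple epithelia, followed the oviduct genes and not the other junction genes. Its level was 17.99 CPM in untreated 10, 14.6 in EV 36 and 13.45 in EV 41. The other libraries ran from 0.392 CPM in tumour bearing 17 to 2.43 CPM in tumour bearing 21, with untreated 4 at 0.673 CPM, untreated 7 at 0.864 CPM, tumour bearing 22 at 0.781 CPM and EV 37 at 1.34 CPM. Untreated 7 therefore lay among the fat-rich libraries for Cldn3, although it had the most Epcam and Cdh1.

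Epcam, the epithelial cell adhesion molecule, was at 75.7 CPM in untreated 7, 42.3 in untreated 10, 26.1 in EV 36 and 28.8 in EV 41. The other 5 libraries ran from 0.0560 CPM in tumour bearing 17 to 0.819 CPM in EV 37. Cdh1, which encodes E-cadherin of adherens junctions, was at 423 CPM in untreated 7 and at 30.0 to 37.7 CPM in untreated 10 (37.7), EV 36 (35.1) and EV 41 (30.0). It was at 0.2155 to 1.22 CPM in the other 5. Both genes therefore separated 4 libraries with epithelium from 5 nearly without it, and the order among the 4 differed: untreated 7 was 1.79-fold above the next library for Epcam and 11.2-fold for Cdh1.

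Krt8 and Krt18 encode the type II and type I keratins that pair in simple epithelia. Krt8 was at 877 CPM in untreated 7, 92.8 in untreated 10, 74.6 in EV 36 and 65.4 in EV 41. EV 37 had 18.1 CPM, tumour bearing 22 had 12.35 CPM, tumour bearing 21 had 10.1 CPM, untreated 4 had 9.14 CPM and tumour bearing 17 had 6.50 CPM. Krt18 was at 1009 CPM in untreated 7, 56.7 in untreated 10, 64.3 in EV 36 and 52.0 in EV 41, and at 2.69 to 9.965 CPM in the other 5 libraries. Unlike Ovgp1 and Pax8, the keratins were detected in all 9 libraries. The mesothelium that covers the fat pad also holds both keratins. Its gene Upk3b, which is a uroplakin, was at 445.7 CPM in untreated 7 and at 73.1 to 339 CPM elsewhere. Whether Upk3b in untreated 7 came from mesothelium or urothelium was not tested. The ratio of Krt18 to Krt8 was 1.15 in untreated 7 and 0.367 to 0.983 in the other 8. The simple epithelium list includes the members Krt8, Krt18, Epcam, Cdh1 and Cldn3, so its count is no separate evidence. Among its 29 genes that reached 5 CPM, 26 were highest in untreated 7, against 25.1% of all IDs. Krt7 and Krt19 were at 1342 and 641 CPM there and at 96.3 CPM or less elsewhere.

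Hoxa13, the last gene of the HoxA cluster and a regulator of the lower urogenital tract and hindgut, went apart from the oviduct genes. It was at 39.0 CPM in untreated 7, and its lowest levels were in 2 of the Inha libraries, 0.113 CPM in untreated 10 and 0.4535 CPM in EV 41. EV 36 had 1.11 CPM and the other 5 libraries 1.85 to 5.39 CPM. Of the 13 genes of the Müllerian Hox and patterning list that reached 5 CPM, Hoxa13 among them, 8 (61.5%) were highest in untreated 7. Over all IDs at 5 CPM or more this was so for 25.1%. For 3 of the 13 (23.1%) the Inha libraries were the highest 3, near the 18.95% of all IDs. Wnt5a and Tbx2 were at 233.5 and 213 CPM in untreated 7. Hoxd9, a gene of the HoxD cluster, was at 35.7 to 46.7 CPM in the Inha libraries and at 12.7 CPM in untreated 7. Wnt4, which is needed to form the Müllerian duct, did not separate these 4 libraries, at 60.0 to 83.4 CPM in them and 2.63 to 4.93 CPM in the other 5.

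Sprr2f encodes a small proline-rich protein that estrogen induces in the mouse uterine epithelium. It was at 14.0 CPM in untreated 10, from 371 counts, and at 1.21 CPM or less in the other 8 libraries. EV 41 had 1.21 CPM, untreated 4 had 1.009 CPM, EV 37 had 0.603 CPM, EV 36 had 0.537 CPM and untreated 7 had 0.173 CPM. The tumour bearing libraries had 0 or 1 count each. EV 36 and EV 41, with nearly as much Ovgp1 as untreated 10, thus had levels of Sprr2f like that of EV 37, which had 0 counts of Ovgp1. Untreated 7 had little Sprr2f but the most of its relatives Sprr2a2 (2474 CPM), Sprr2a3 (1580 CPM) and Sprr2a1 (132.5 CPM), and 8 of the 12 family genes stayed under 5 CPM in every library. Among uterine epithelium genes, Ltf, the estrogen-induced lactoferrin, was at 513 CPM in untreated 10, 342 in EV 36 and 217 in EV 41, at 12.1 CPM in tumour bearing 21 and at 2.92 CPM or less elsewhere. Ltf is also made by neutrophils, as is Lcn2, which was at 65.3 CPM in untreated 10 and 68.9 CPM in tumour bearing 21.

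**Figure D2:**
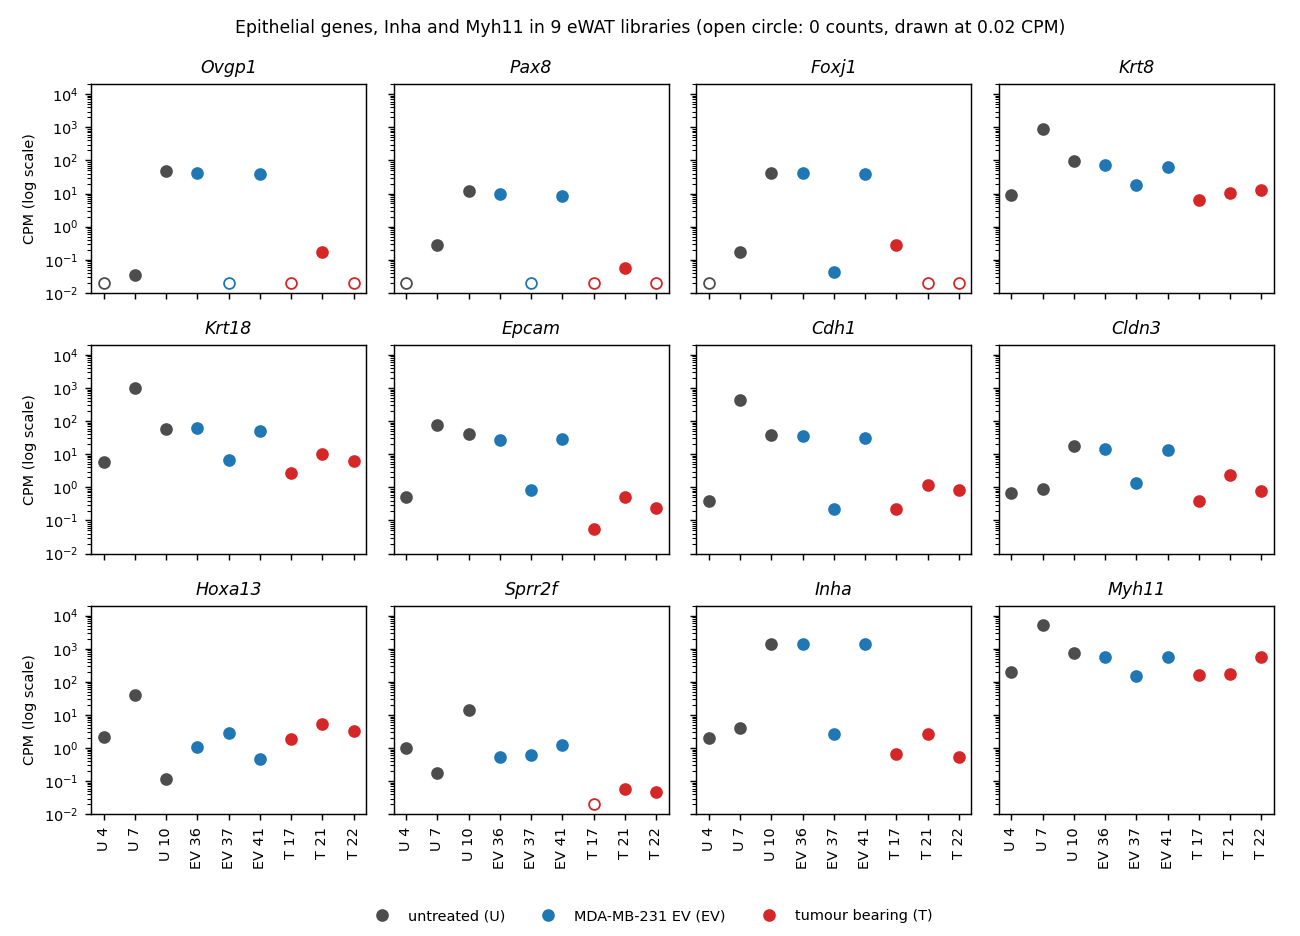
CPM (TMM-scaled, log axis) of the 10 members, Inha and Myh11 in each of the 9 libraries, 1 point per library, with open circles for 0 counts drawn near the foot of the axis. Ovgp1, Pax8, Foxj1 and Cldn3 repeat the picture of Inha, while Krt8, Krt18, Cdh1, Epcam and Hoxa13 have their highest point in untreated 7, and Sprr2f has its highest point in untreated 10.

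The name of the gene set, oviduct and uterus epithelium, did not hold for the epithelium of untreated 7. Its Ovgp1, Pax8, Foxj1 and Cldn3 were at 0.0346 to 0.864 CPM and its Ltf at 0.311 CPM. It had instead the highest level of all 8 genes on the urothelium list, each more than 10-fold above every other library, against 1.81% of all IDs at 5 CPM or more. The uroplakins Upk1a, Upk3a, Upk1b and Upk2, which form the surface plaques of the bladder lining, were at 2227, 1628, 1425 and 1012 CPM there. Part of the stratified epithelium list was high in the same library. Of its 17 genes, 9 stayed under 5 CPM in every library, such as Krt14 (3.32 CPM in untreated 7). Of the 8 that reached 5 CPM, 7 (87.5%) were highest in untreated 7, against 25.1% of all IDs, whereas Sbsn was lowest there, at 7.05 CPM. Krt5 and Krt15, keratins of basal cells, were at 813 and 559 CPM, and Sprr1a and Ivl, proteins of the cornified envelope, at 1549 and 324 CPM. All 14 smooth muscle genes were highest in untreated 7 too, as were 25.1% of all IDs at 5 CPM or more. The 14 genes summed to 19350 CPM there against 1078 to 3969 CPM elsewhere.

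The Inha libraries held little of that lining. The 8 urothelium genes summed to 7763 CPM in untreated 7, 119 in EV 36, 27.6 in EV 41 and 21.6 in untreated 10, with 14.7 to 50.5 CPM in the other 5. In each of those 5, Upk1b alone gave most of the sum, at 13.67 to 45.98 CPM. Upk3a was at 22.1 CPM in EV 36, 3.59 in EV 41 and 3.30 in tumour bearing 21. It was at 0.168 CPM or less in untreated 4, EV 37 and tumour bearing 17 and 22. In EV 36 these 8 genes were at 1.08% (Upk2) to 4.53% (Krt20) of their levels in untreated 7. Krt8, Krt18 and Cdh1 of EV 36 were at 8.50%, 6.37% and 8.31% of untreated 7, and Epcam at 34.5%. In untreated 10 the 8 genes were at 0% to 0.725% of untreated 7: Upk2 had 0 counts and Upk3a was at 0.0755 CPM, but Upk1a was at 12.98 CPM and Upk1b, which mesothelium also expresses, at 6.34 CPM. In the same library Krt8 was at 10.6%, Cdh1 at 8.91% and Epcam at 55.9% of untreated 7. The part of urothelium in the members' levels of these libraries was not tested.

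**Figure D3:**
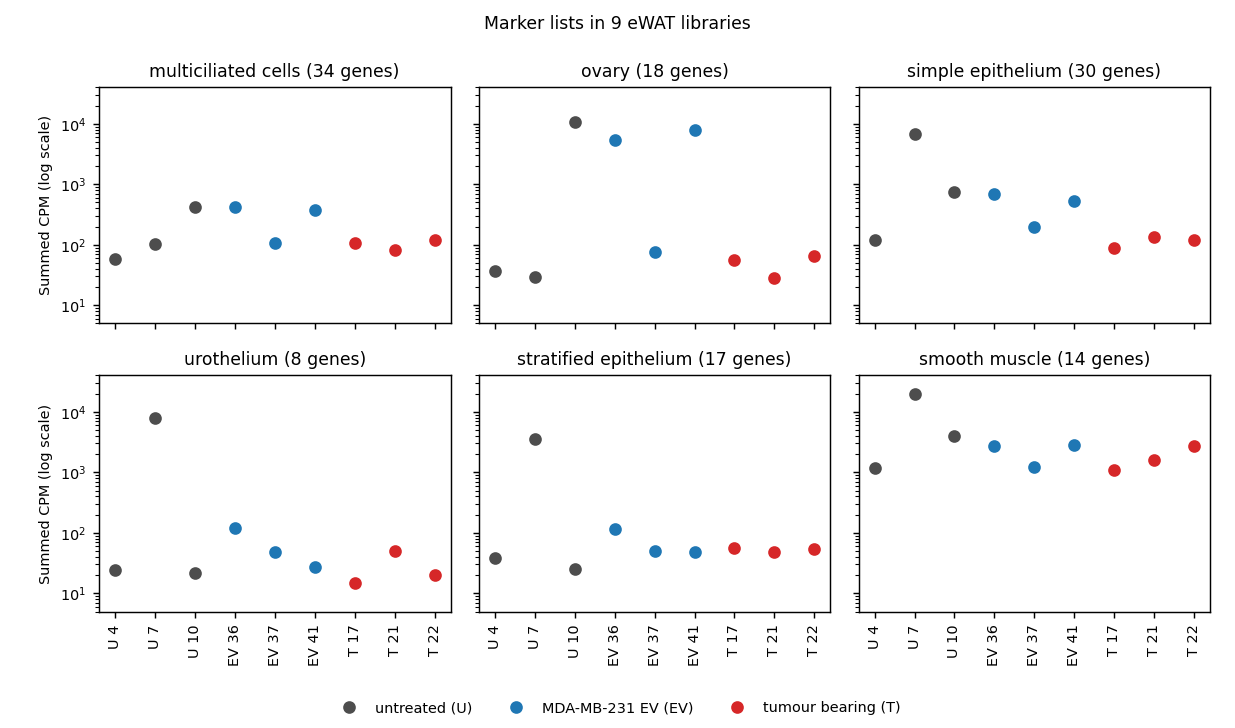
Summed CPM (log axis) of 6 marker lists in each library, 1 point per library coloured by group. The multiciliated and ovary lists are highest in untreated 10, EV 36 and EV 41 (372 to 419 and 5425 to 10670 CPM), and the simple epithelium, urothelium, stratified epithelium and smooth muscle lists in untreated 7.

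Lists for other epithelia were also summed. Mammary epithelium genes summed to 830 CPM in untreated 7, of which Krt5 was 813 CPM, and to 671, 445 and 308 CPM in untreated 10, EV 36 and EV 41, where Ltf was the highest gene. The milk protein genes Csn2, Wap and Lalba of that list had 0 counts in all 9 libraries. Prlr and Wfdc18 of the same list were at 48.8 to 142.8 and 9.89 to 12.6 CPM in the Inha libraries. Elsewhere they were at no more than 34.0 and 0.172 CPM. Kidney tubule genes, which include Pax8 and Pax2, summed to 7.85 to 33.0 CPM per library, and Lrp2, the proximal tubule receptor megalin, was at 19.5 CPM or less. Intestinal genes summed to 8.59 to 38.5 CPM. The 11 genes for thyroid and pancreas summed to 3585 CPM in untreated 4 and to 33.8 to 185 CPM elsewhere, and the digestive enzymes Ctrb1 and Pnlip were at 1315 and 892 CPM in untreated 4 and at 38.4 CPM or less elsewhere. Untreated 4 had no Ovgp1, Pax8 or Foxj1, and its Epcam was at 0.5045 CPM. The part of each of these tissues in the members' levels was not tested further.

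Whether epithelium went with ovary or with smooth muscle could be read only as an order of libraries, since they fell into separate clusters and no correlation over them was computed. Within the 3 Inha libraries, Ovgp1 was at 3.38%, 2.84% and 2.76% of Inha in untreated 10, EV 36 and EV 41, and Foxj1 at 3.04%, 2.998% and 2.71%. Myh11 in these libraries was 552.6 to 740.4 CPM, and tumour bearing 22 had as much (564 CPM) with 0 counts of Ovgp1, Pax8 and Foxj1 and 0.244 CPM of Epcam. A raised Myh11 without raised epithelial genes was therefore seen in that library. The 13 genes of the reproductive tract stroma list that reached 5 CPM had no common pattern. For 4 (30.8%) the Inha libraries were the highest 3, against 18.95% of all IDs at 5 CPM or more. Highest in untreated 7 were 5 (38.5%), against 25.1% of all IDs. Greb1, an estrogen receptor target, was at 153 to 290 CPM in the Inha libraries and at 13.4 CPM or less elsewhere, whereas Esr1, the estrogen receptor itself, was at 75.4 to 134 CPM in 8 libraries and 17.98 CPM in untreated 7. Oxtr, the oxytocin receptor, was at 43.95 to 118 CPM in the Inha libraries but at 61.6 CPM in untreated 4 and 87.0 CPM in tumour bearing 17. Hoxa10 and Hoxa11 were lower in the Inha libraries (2.12 to 5.62 and 0.945 to 2.54 CPM) than in the 5 fat-rich ones (9.03 to 13.5 and 4.49 to 9.28 CPM). Both were highest in untreated 7, at 67.1 and 41.2 CPM.

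The genes with profiles most like the members' were sought among 13330 genes, by the root-mean-square (RMS) difference of centred log2(CPM + 0.5) over the 9 libraries. For Ovgp1 they were Gdf9, Zp3 and Khdc1b (0.19 to 0.24), for Pax8 Fbxw19, Miox and Tcl1 (0.19 to 0.20), and for Foxj1 Khdc1b, Ihh and Zp3 (0.24 to 0.26). Gdf9 and Zp3 are oocyte genes, so the profile over these 9 libraries did not separate oviduct from ovary. For Krt8 they were Wnt7b, Prss8 and Epn3 (0.23 to 0.34), for Krt18 Esrp2, Rab25 and Scube2 (0.30 to 0.36), for Epcam Kcnk1, Gsta2 and Tmem184a (0.43 to 0.49), and for Cdh1 Ehf, Cyp4f15 and Tmprss13 (0.38 to 0.47). Esrp2 is a splicing regulator and Ehf a transcription factor of epithelia. Cldn3 was nearest to Msi1, Alox12e and Bcan (0.30 to 0.34), Hoxa13 to Duoxa1, Acer2 and Crybg1 (0.40 to 0.44), and Sprr2f to Tnfrsf9, Podnl1 and Vmn2r89 (0.38 to 0.62).

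The design asked what EV injection or a tumour did to eWAT. In EV versus untreated mice, 0 of the 10 members passed edgeR's quasi-likelihood test at an adjusted p under 0.05, where 0.00559% of 17876 genes did, and 0 had groups without overlap, against 2.88% of genes. DESeq2 called 0 of the 8 members to which it gave an adjusted p, and 0.0533% of 30015 genes. Fold changes are on the log2 scale with their standard error (SE), and 4 members were positive. Foxj1 averaged 26.9 ± 23.4 CPM (SD, n = 3) with EVs against 14.1 ± 24.3 CPM without, and its log2 fold change was 0.93 ± 2.23. Krt8 averaged 52.7 ± 30.3 and 326 ± 479 CPM, a log2 fold change of -2.63 ± 1.30. Neither difference passed the edgeR test (adjusted p = 1, with unadjusted p = 0.687 for Foxj1 and 0.077 for Krt8). Without untreated 7 the Krt8 value was 0.05, and without untreated 10 the Foxj1 value was 8.02, so 1 untreated library set the size of each. The median over the members was -1.86, beside 0.00 over all genes.

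In tumour bearing versus untreated mice, 0 members passed by edgeR (0.218% of genes did), with adjusted p of 0.418 or more, and 8 had an unadjusted p under 0.05, as did 2119 of all genes. All 10 log2 fold changes were negative, with a median of -7.05 beside -0.12 over all genes. Cdh1 was 0.757 ± 0.5004 CPM in tumour bearing and 154 ± 234 CPM in untreated mice, a log2 fold change of -7.66 ± 2.49. Untreated 4, at 0.392 CPM, lay within the tumour bearing range of 0.224 to 1.22 CPM. Sprr2f was the only member whose groups did not overlap, against 11.8% of genes, at 0 to 0.0579 CPM in tumour bearing and 0.173 to 14.0 CPM in untreated mice (log2 fold change -6.94 ± 1.79). The lowest untreated value came from 5 counts in untreated 7, against 0 or 1 count in each tumour bearing library. A floor of 3 counts was 0.174 CPM in tumour bearing 21, so the gap lay near the floor. DESeq2 called 5 of 8 members, Krt8, Krt18, Epcam, Cdh1 and Sprr2f, with a lowest adjusted p of 4.55e-05, and 760 of 19330 genes (3.93%). Of the 32 multiciliated, 30 simple epithelium and 8 urothelium genes tested, 0 passed by edgeR in any of the 3 comparisons, and their median log2 fold changes here were -3.53, -5.37 and -8.32. Without untreated 10 the log2 fold change of Ovgp1 went from -8.01 to 1.21, and without untreated 7 that of Krt8 went from -5.08 to -2.40.

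In tumour bearing versus EV mice, 0 members passed by edgeR (0.257% of genes did; lowest adjusted p = 0.351) and 5 had an unadjusted p under 0.05, as did 2526 of all genes. Epcam, Krt8 and Sprr2f had groups without overlap, against 25.2% of genes. Epcam was 0.274 ± 0.234 CPM in tumour bearing and 18.6 ± 15.4 CPM in EV mice, a log2 fold change of -6.06 ± 1.90, and DESeq2 called it with an adjusted p of 0.0015. It was the 1 member of 8 that DESeq2 called, where 907 of 18736 genes (4.84%) were called. EV 37, at 0.819 CPM, was the lowest of the EV group and next to tumour bearing 21 at 0.521 CPM. Hoxa13 alone was positive, at 1.27 ± 1.52. The members' median was -4.55, beside -0.06 over all genes.

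Without untreated 7, untreated 10, EV 36 and EV 41, an alternative chosen after the data were seen, 7 members kept enough counts to be fitted and 0 passed in any comparison. Their median log2 fold changes were 0.36 for EV versus untreated, 0.14 for tumour bearing versus untreated and -0.16 for tumour bearing versus EV. This fit compares 1 untreated and 1 EV mouse with 3 tumour bearing mice and assumes that the lone mice vary like the others. Since the members were chosen on these libraries, none of these counts bears on whether the groups differ in epithelium, and the makeup of the dissected tissue and the treatment cannot be told apart for the tumour bearing group, in which no library had Ovgp1 above 0.174 CPM or Inha above 2.67 CPM.

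**Figure D4:**
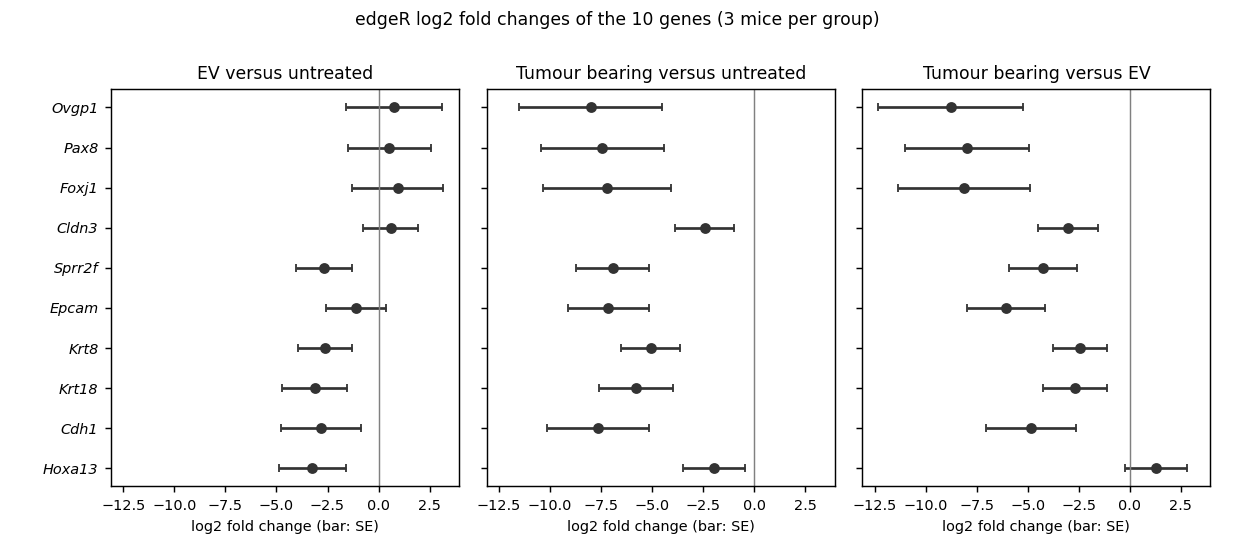
Log2 fold change (edgeR, points) with its standard error (bars) for the 10 members in the 3 comparisons, with 3 mice per group and a line at 0. Values for EV versus untreated lie on both sides of 0, all 10 are negative for tumour bearing versus untreated, and 9 of 10 are negative for tumour bearing versus EV, while 0 passed the test in any of them.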

How the data were processed

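RNA-seq of 9 eWAT samples, 1 mouse each in 3 groups of 3, was analysed from the deposited gene table. According to the study's methods, SeqPrep and Sickle trimmed the reads, HISAT2 and StringTie aligned and assembled them, and RSEM gave gene counts. The submitters' processing notes name Bowtie 0.12.2 with mm8 and mm9 instead, and TruSeq and SMARTER kits are both mentioned. No source used here gives the annotation. The deposited expected counts (estimated counts that need not be whole) were rounded. The columns that the authors named TPM were treated as a score and used for no result: their totals were 0.697 to 1.28 of what TPM sums to, and 99.9% of 14954 genes met, within a relative tolerance of 0.0001, the relation left when 3 batches are removed by least squares. These inferred batches were untreated 7 alone, tumour bearing 17 with 22, and the remaining libraries. No label gives a batch, and untreated 7 cannot be told apart from its inferred batch. Of 53700 IDs, 52093 matched a symbol.

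The edgeR 4.0.16 quasi-likelihood test (R 4.3.3, filterByExpr, TMM, group as the term, all 9 libraries) kept 17876 genes, all 10 members among them. P-values were adjusted over all genes (Benjamini-Hochberg, threshold 0.05). They weigh a group difference against the variation between mice of a group, which here includes the makeup of the dissected tissue. Alternatives were DESeq2 1.42.0, other scalings, no filter, only the 2 groups compared, inferred batches, IDs that share a symbol and each library left out. A floor of 3 counts (0.104 to 0.174 CPM) covers counting error only. On simulated data for tumour bearing versus untreated (17214 genes), the test found 36 of the 100 genes that were set 4-fold apart and 90 of the 100 set 32-fold apart.

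The members and lists were chosen with earlier results of these data known. The text names the members, Inha and Myh11, up to 4 genes per list by mean CPM, and the 3 genes most like each member, predicted genes left out. Pax2, Krt20, Krt14, Sbsn, Hoxa10, Hoxa11, milk protein genes, overlapping genes and the tissues set beside single libraries were picked after their values were seen.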

Additional observations from a re-analysis of the deposited data

How the results depend on the processing

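The members' levels kept their highest library and stayed within 1.5-fold in their ratio to the median library in 19 of 20 values under other scalings. The exception was Foxj1, highest in untreated 10 and not EV 36 on library totals. For 7 of 10 members at least 2 of the 3 most like genes were shared with a pseudocount of 1 CPM. Counts of called genes moved, while called members stayed at 0 in every alternative but DESeq2 (5 in tumour bearing versus untreated, 1 in tumour bearing versus EV). For EV versus untreated, 4 genes were called without a filter, 16 with DESeq2, and 0 with inferred batches, without IDs that share a symbol, with only the 2 groups or without the urothelial and ovary libraries. Leaving out 1 library gave 0 to 2, with 0 without any EV or tumour bearing library and 2 without untreated 4 or untreated 10. For tumour bearing versus untreated, DESeq2 called 760, inferred batches 4, and the fit without those libraries 0, with 8 to 38 on leaving out 1 library (lowest without tumour bearing 22). For tumour bearing versus EV these were 907, 27 and 0, with 111 for only the 2 groups and 0 to 70 on leaving out 1 library (0 without EV 36, 2 without EV 41 and 70 without untreated 7). The cause was not tested. Log2 fold changes of members changed sign in 16 of 167 values for EV versus untreated, 9 of 162 for tumour bearing versus untreated and 1 of 164 for tumour bearing versus EV. As untreated 7 is an inferred batch of its own, the batch fit for EV versus untreated is not a check apart from leaving untreated 7 out. The Krt8 log2 fold change was 0.05 in both. No paired analysis was possible because the groups share no mouse numbers.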
